A study of Mus musculus with 80 samples.

Results

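The nearly silent reporters are 399 barcoded transgenes that gave almost no RNA for their amount of DNA in mouse embryonic stem cells grown without doxycycline (dox), the condition in which the reporter is switched on. They were chosen from 7415 eligible reporters, those with 100 or more DNA counts in every DNA library of their cell pool, out of 10903 reporters in all. The level of a reporter in a library is its LR, the log2 of its share of the RNA counts (with a pseudocount of 1) minus the log2 of its share of the DNA counts, so that 0 means equal shares. A reporter was counted as nearly silent when its LR was -4 or less at dox 0 in both replicates. The 399 make up 5.38% of the eligible reporters (95% Wilson interval 4.89 to 5.92, counting error only), with 101 in pool A, 110 in pool B, 91 in pool C and 97 in pool D. Since the dox 0 levels chose them, those levels are given as a description. The other 7016 eligible reporters are the set they are compared with.

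In a tet-Off system, the tetracycline-controlled transactivator (tTA) binds operator sequences in front of a promoter and activates it, and dox releases tTA from the DNA. A copy of such a reporter that lands elsewhere in the genome meets other chromatin, and its expression can differ from that of an identical copy at another site, which is called a position effect. The TRIP assay measures this by giving each piggyBac transposon copy its own barcode, which is counted in RNA and in genomic DNA and is tied to its insertion site by inverse PCR.

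All groups were EBRTcH3 cells, which make tTA from the ROSA26 locus, carrying piggyBac tet-Off reporters and sorted for low eGFP after transfection. The label protocols also speak of a mouse PGK promoter. That conflict could not be settled, and the titles, which name tet-Off, were followed. The 4 pools, A to D, were each divided into 2 cultures that are technical replicates per the labels, and each culture was treated for 72 h with no dox or with dox at 0.01, 0.1 or 100 ng/ml. p-values between doses in a pool therefore measure the spread between cultures of 1 pool. Bulk RNA from a pool cannot tell fewer expressing cells from less RNA per cell. Over the reporters with 10 or more DNA counts in every library, the total per library was 729108 to 1840870 in RNA and 923846 to 1571280 in DNA. RNA counts were scaled between libraries, so these values cannot show a loss of RNA common to every reporter.

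A nearly silent reporter is known by its barcode, read in RNA and DNA alike, and by its insertion site, given here as chromosome, position in mm9 and strand. The barcode had 16 bases in 393 of the 399, 15 in 2 and 17 in 4. The 5 with the lowest mean LR at dox 0 are shown first, with the whole barcode in capitals, because they lie at the end of the ranking. They had 0 to 2 RNA counts there, so their LR is at or near a floor that their DNA counts of 4367 to 14021 set.
Pool B, chromosome 11, 29350554 (+): TACAAAGGAACCGTCA
Pool B, chromosome 2, 137118207 (-): TATTCGGGTTTTATAA
Pool B, chromosome 3, 8053403 (-): CTCAGCCTACGGACGA
Pool A, chromosome 7, 144770516 (-): TGAGGGATTGATGGAC
Pool C, chromosome 17, 10643091 (-): AGCTAACTGACCACAC

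The 5 with the highest mean LR at dox 100 are shown because they kept most RNA for their DNA at that dose. A rise from dox 0 follows from choosing them low at dox 0 and high at dox 100, and LR is a share of a pool in which most reporters lost RNA.
Pool A, chromosome 2, 154717685 (-): GCAATTAAGAATACAC
Pool A, chromosome 3, 63182789 (+): GTAATGCCCTAATTAC
Pool A, chromosome 1, 107595710 (+): GACGGGTCTGCCATAA
Pool C, chromosome 10, 114827837 (+): TCTAGGCTTAGGGAAC
Pool A, chromosome 13, 105702577 (-): CAAACTGTAAACAACA

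The close pairs below are shown because the same reporter was read at nearly the same site under different barcodes. The first pair sat 1 bp apart on opposite strands in different pools and the second pair 94 bp apart, all 4 nearly silent. Of the third pair, 577 bp apart, the pool B reporter was nearly silent and the pool A reporter was not.
Pool C, chromosome 5, 63957832 (-): TCTTTCTTATCACAAT
Pool A, chromosome 5, 63957833 (+): ACACATACAGAAAGCC
Pool B, chromosome 3, 10916530 (+): GAACGTTATCATCTCG
Pool C, chromosome 3, 10916624 (-): AACCTAATTACTTCTG
Pool B, chromosome 8, 119226650 (-): CTATTAGTATATTGAT
Pool A, chromosome 8, 119226073 (+): CCCCAGACAACCCTAC

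The selection asked for DNA in every library and low RNA at dox 0, and the counts behind it were as follows. The nearly silent reporters had median RNA counts of 16 and 17 in replicates 1 and 2 and median DNA counts of 492 and 483. The other eligible reporters had median RNA counts of 366 and 396.5 and median DNA counts of 458 and 457. Few were without any RNA: 364 (91.2%) had RNA in both replicates, 18 in a single one and 17 in neither. Their median LR was -5.08 (quartiles -5.87 and -4.63), against -0.72 (quartiles -1.99 and 0.50) for the others, a gap that the selection fixes.

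The threshold cut a continuous range. Just inside it lay a chromosome 17 reporter at 9380623 (pool C), at -4.66 and -4.0014 in the dox 0 replicates, a chromosome 10 reporter at 48857448 (pool A), at -4.0016 and -4.66, and a chromosome 2 reporter at 29833199 (pool D), at -5.49 and -4.0022. Just outside it lay 3 pool D reporters, on chromosome 18 at 87589168 (-5.08 and -3.9998), on chromosome 6 at 12662825 (-8.83 and -3.9971) and on chromosome 9 at 75998533 (-5.55 and -3.9965). A rule of -3 would take 925 reporters and a rule of -5 would take 148.

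The lowest of all, the pool B reporter on chromosome 11, had 0 and 0 RNA counts at dox 0 beside 11969 and 14021 DNA counts. It had 3 and 2 RNA counts at dox 0.01, 0 and 64 at dox 0.1, and 99 and 0 at dox 100. Its RNA at dox 0.1 and at dox 100 thus stood in 1 of 2 cultures each time. The chromosome 17 reporter of pool C had 1 and 1 RNA counts at dox 0 and none in any library at the 3 higher doses, with 4960 to 6351 DNA counts there. The other 3 of these 5 each had RNA counts of 18 to 47 in a single culture at dox 0.1 and counts of 0 or 1 in both cultures at dox 100.

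The 17 nearly silent reporters with no RNA in either dox 0 culture gave little RNA at the other doses too. At dox 0.01, 13 had none, 3 had RNA in a single culture and 1 had it in both, with at most 3 counts. At dox 0.1, 14 had none and 3 had 18 to 64 counts in a single culture. At dox 100, 13 had none, 4 had 45 to 99 counts in a single culture and 0 had RNA in both. In all, 10 of the 399 had no RNA count in any of their 8 RNA libraries.

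The low level held in the libraries that the selection did not use. At dox 0.01, 357 of the 399 (89.5%) were again at -4 or less in both replicates, against 399 (5.69%) of the other eligible reporters. None of the 399 was above the other reporters' median in both replicates at dox 0.01, whereas 6 were at dox 0.1 and 29 at dox 100. Among the others, 45.3% were at dox 0.01, 44.8% at dox 0.1 and 34.5% at dox 100. The other reporters' median fell with dose, and at dox 100 41.9% of them had no RNA in either replicate. A nearly silent reporter could therefore pass that median at dox 100 without a rise in its own level. The median LR of the nearly silent reporters was -5.83 at dox 0.01, -8.12 at dox 0.1 and -8.22 at dox 100. That of the others was -1.05 at dox 0.01, -2.77 at dox 0.1 and -6.14 at dox 100.

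Averaged over pools, the nearly silent reporters were lower than the others by a median difference of -4.82 ± 0.14 at dox 0.01, -5.48 ± 0.33 at dox 0.1 and -2.14 ± 0.14 at dox 100 (SD, n = 4 pools). The direction was the same in 4 of 4 pools at each dose. The exact sign-flip permutation test over 4 pools gave p = 0.13 each time (two-sided), the smallest it can give, and 0.154 after adjustment over the 16 tests of this kind. The gap was narrower by 2.68 ± 0.27 at dox 100 than at dox 0.01. The exact permutation of the 3 doses within pools gave p = 0.0293 for that trend and 0.117 after adjustment, which misses 0.05. Most nearly silent reporters had 0 counts at the upper doses, so their LR there is a floor set by DNA count and depth. The size of the gap at the upper doses depended on the processing: at dox 100 it was -0.95 without replicate 1, -1.53 without replicate 2 and -1.15 with a pseudocount of 5, and at dox 0.1 it was -3.41 with that pseudocount. The trend p was 0.0895 in the exact permutation test with a pseudocount of 0.5, where the change was 2.27.

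**Figure D1:**
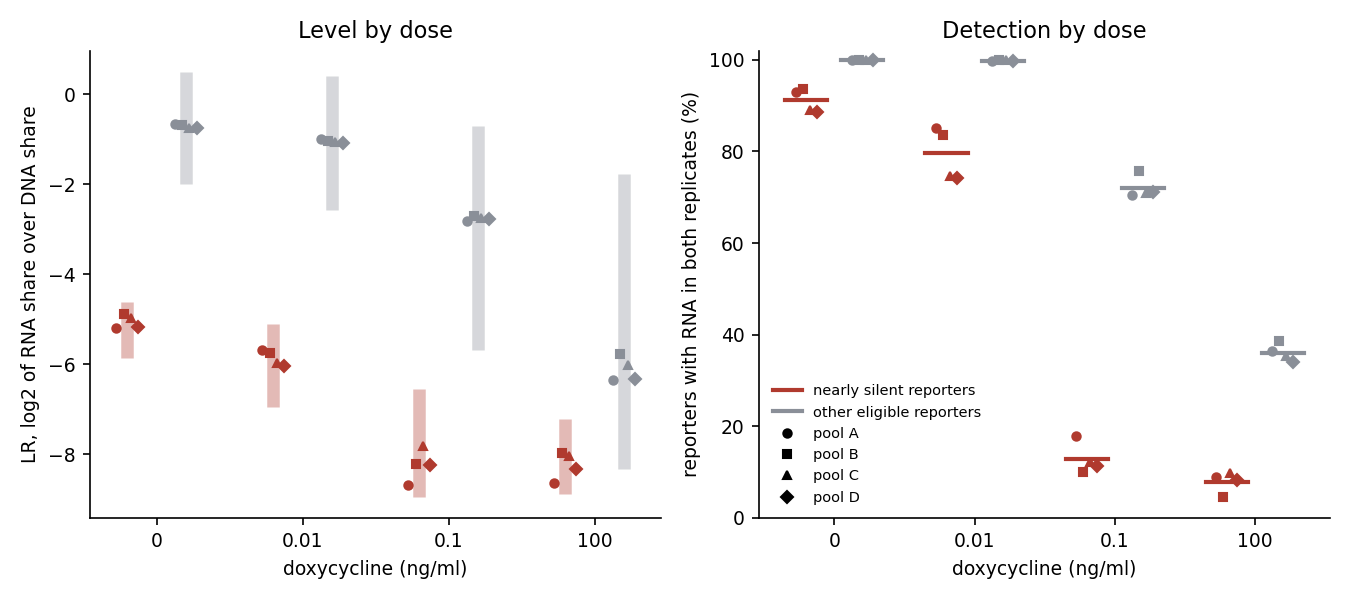
LR by dox dose (left) and percentage of reporters with RNA in both replicates (right), for the nearly silent reporters (red) and the other eligible reporters (grey). Points are the 4 pools, bars on the left are quartiles over all pools and lines on the right are values over all pools; the red pool medians and shares lie below the grey ones at every dose, with detection of 7.77% at dox 100 and 91.2% at dox 0 for the nearly silent reporters.

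With dox, RNA was no longer seen for most of them. It was present in both replicates for 91.2% at dox 0, 79.7% at dox 0.01, 12.8% at dox 0.1 and 7.77% at dox 100. Among the other eligible reporters it was present for 7015 of 7016 at dox 0, 99.8% at dox 0.01, 72.1% at dox 0.1 and 36.0% at dox 100. Neither replicate had RNA for 4.26% of the nearly silent reporters at dox 0, 7.27% at dox 0.01, 58.6% at dox 0.1 and 73.7% at dox 100.

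Detection of the nearly silent reporters was lower at dox 100 than at dox 0.01 by 71.5 ± 7.19 percentage points (a change of -71.5, SD, n = 4 pools). That of the others changed by -63.7 ± 1.85 points. Both trends over the 3 doses had an exact permutation p of 0.00154, adjusted to 0.0123, in 4 of 4 pools. Whether one change was larger than the other was not tested. At dox 0.01 the nearly silent reporters had median RNA counts of 9 and 8 in replicates 1 and 2, against 287 and 273 for the others, and the part of this lower starting count in their detection was not tested.

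The commonest course was RNA in both cultures at dox 0 and 0.01 and none at dox 0.1 and 100, which 146 of the 399 followed. RNA in both cultures at every dose was seen for 23. Counts in a single culture were frequent at the upper doses, for 114 reporters at dox 0.1 (median count 19.5, highest 108) and for 74 at dox 100 (median count 61, highest 220). Among the 7016 other eligible reporters such counts were seen for 1152 at dox 0.1 and 1547 at dox 100. A single-culture count of a nearly silent reporter at dox 0 was lower, with a median of 3 over 18 reporters. The standard deviation of LR between replicates of a nearly silent reporter was 0.72 at dox 0, 0.99 at dox 0.01, 1.79 at dox 0.1 and 1.85 at dox 100. For the others it was 0.50, 0.53, 1.53 and 2.11 in the same order.

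Dose changes were tested for each reporter with edgeR on RNA against DNA counts. A call is an adjusted p below 0.05 within the pool. At dox 0.1 against 0.01, 107 nearly silent reporters (26.8%) were called lower, where the background over all 10785 reporters tested was 15.3%, and 17 (4.26%) were called higher, where the background was 6.26%. At dox 100 against 0.01, 157 (39.3%) were called lower beside a background of 48.2%, and 33 (8.27%) were called higher beside a background of 9.91%. Among the 7415 eligible reporters, 15.8% were lower and 7.50% higher at dox 0.1, and 48.9% were lower and 11.1% higher at dox 100. The median log2 change over all 399 was -2.61 at dox 0.1 against 0.01, beside -0.67 over all reporters, and -4.67 at dox 100 against 0.01, beside -3.80 over all reporters. The order at dox 0.1 held in every setting tried. That at dox 100 was reversed with the DESeq2 Wald test, at -3.74 beside -3.86. It was also reversed without dox 100 replicate 1 (-5.33 beside -6.87) or replicate 2 (-5 beside -5.74). In the other settings the order at dox 100 held.

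The shares called higher lay near the background in both contrasts. The share called lower at dox 100 was below its background, also in each run without a culture. The share called lower at dox 0.1 was above its background. That gap was lost without dox 0.1 replicate 1 and was narrower without dox 0.1 replicate 2. No gap was tested. Of the 107 called lower at dox 0.1, 106 had no RNA in either culture at that dose, and of the 157 called lower at dox 100, 156 had none. Nearly all of these folds are therefore bounds. The counts moved when 1 culture of a dose was left out in every pool, and the background of the same run is given with each. The 107 became 58 (background 8.51%) and 57 (8.65%) without dox 0.01 replicate 1 or 2, and 65 (14.9%) without dox 0.1 replicate 2. The 157 became 103 (background 37.4%) without dox 0.01 replicate 1 and 100 (52.8%) without dox 100 replicate 2. The 17 became 8 (background 3.43%) and 5 (3.33%) without dox 0.01 replicate 1 or 2. The 33 became 19 when either culture at dox 0.01 was dropped (backgrounds 6.77% and 6.75%). Without dox 100 replicate 1 or 2 there were 40 and 44, which is 10% and 11% of the 399 beside backgrounds of 7.86% and 8.46%.

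Against dox 0, whose libraries chose these reporters, the calls are listed without being read. At dox 0.1, 142 were lower (background 19.8%) and 22 higher (background 9.07%). At dox 100, 187 were lower (background 50.4%) and 33 higher (background 10.9%). At dox 0.01, edgeR called 0 in either direction (backgrounds 0% lower and 0.0185% higher), with 26 lower and 5 higher at an unadjusted p below 0.05 (backgrounds 2.17% lower and 2.76% higher). DESeq2 called 2 there, both lower (background 0.751%).

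Reporters called lower went to 0 RNA counts. The chromosome 10 reporter at 83308309 (pool D) had 135 and 115 RNA counts at dox 0, 105 and 51 at dox 0.01, and none at dox 0.1 or 100. Its DNA counts were 1200 to 1760 throughout. Scaled by library totals, it was at least 44.6-fold lower at dox 0.1 than at dox 0.01 and at least 53.6-fold lower at dox 100. These bounds take 3 reads over the 2 cultures as the floor. The edgeR fit, scaled by TMM, gave adjusted p of 0.000357 for dox 0.1 and 3.36e-05 for dox 100. Its log2 change at dox 0.1 was -8.69 with TMM and -9.10 with library totals, so a bound with TMM would be smaller.

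A chromosome 3 reporter at 9897476 (pool B) had 65 and 82 counts at dox 0, 55 and 48 at dox 0.01, and none above. A chromosome 7 reporter at 61093971 (pool C) had 36 and 42 at dox 0, 19 and 31 at dox 0.01, and none above. A chromosome 15 reporter at 18904559 (pool B) had 35 and 46 at dox 0, 26 and 51 at dox 0.01, and none above. Set against the same floor and scaled by library totals, the dox 0.1 counts were lower than those at dox 0.01 by at least 28.4-fold on chromosome 3. The bound was 22.7-fold on chromosome 7 and 22.9-fold on chromosome 15 (edgeR adjusted p 0.00081, 0.00166 and 0.00216 for the 3 in this order).

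Of the other reporters named as lower, 4 kept RNA in 1 culture at an upper dose. A chromosome 18 reporter at 32904260 (pool A) had 87 and 68 counts at dox 0.01, none at dox 0.1, and 62 and 0 at dox 100. Its call at dox 0.1 (edgeR adjusted p 0.0321) did not hold when any 1 culture of either dose was left out, where adjusted p was 0.106 to 0.16. Among those lower at dox 100 against 0.01, a chromosome 3 reporter at 73337828 (pool A) had 42 and 67 counts at dox 0.01, 32 and 0 at dox 0.1, and none at dox 100. A chromosome 16 reporter at 32147976 (pool B) had 37 and 45 at dox 0.01, 14 and 0 at dox 0.1, and none at dox 100. A chromosome 4 reporter at 46678683 (pool B) had 49 and 55 at dox 0.01, 0 and 21 at dox 0.1, and none at dox 100. The calls of these 3 at dox 100 (edgeR adjusted p 0.0138, 0.0125 and 0.0163) did not hold when either dox 0.01 culture was left out (adjusted p 0.0546 to 0.0766). Unlike them, a chromosome 14 reporter at 113035485 (pool A) had 48 and 33 at dox 0.01 and none at dox 0.1 or 100.

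A small set kept RNA at the highest dose. RNA in both cultures at dox 100 was seen for 31 of the 399, and 24 of these had it in both at dox 0.1 as well. The 31 had a median LR of -4.89 at dox 0, -5.33 at dox 0.01, -4.39 at dox 0.1 and -2.45 at dox 100, with 1 of them above 0 at dox 100. They came from all 4 pools (9, 5, 9 and 8 from A to D) and from 17 chromosomes. Having RNA at dox 100 defines this set, so its level there is a description. They had a median of 9 other reporters within 1 Mb, against 7 for the 74 with RNA in a single culture and 6 for the 294 with none. Of their eligible neighbours from another pool under 100 kb, 11 of 22 (50%) had RNA in both replicates at dox 100. It was 21 of 53 (39.6%) around the 74 and 18 of 84 (21.4%) around the 294. Around the eligible reporters that were not nearly silent that share was 48.3%. The 31 had a median DNA count of 664.5, against 585 for the 74 and 444.25 for the 294, and its part in detection was not tested. These sets were drawn after the values were seen and were not tested against each other.

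The strongest was the chromosome 2 reporter at 154717685 (pool A). It had 106 and 97 RNA counts at dox 0, 198 and 190 at dox 0.01, 1730 and 1745 at dox 0.1, and 2776 and 3736 at dox 100, with DNA counts of 2078 to 3643. The cultures of the upper doses did not overlap with those of the lower doses. The log2 change was 5.59 ± 0.39 at dox 100 against 0.01 and 4.14 ± 0.38 at dox 0.1 against 0.01 (SE, edgeR adjusted p 1.38e-06 and 0.00011). Its LR of 0.48 at dox 100 meant that its share of RNA exceeded its share of DNA.

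The chromosome 3 reporter at 63182789 (pool A) had 16 and 32 RNA counts at dox 0, 29 and 25 at dox 0.01, 136 and 304 at dox 0.1, and 293 and 428 at dox 100. The chromosome 1 reporter at 107595710 (pool A) had 57 and 57 at dox 0, 38 and 35 at dox 0.01, 54 and 163 at dox 0.1, and 208 and 364 at dox 100. Their log2 changes at dox 100 against 0.01 were 5.63 ± 0.73 and 4.68 ± 0.79 (SE, edgeR adjusted p 7.41e-05 and 0.000496). Both were above their dox 0.01 counts in each dox 100 culture. The chromosome 13 reporter at 105702577 (pool A) had 34 and 36 counts at dox 0, 44 and 81 at dox 0.01, 213 and 81 at dox 0.1, and 677 and 162 at dox 100, and the chromosome 10 reporter at 114827837 (pool C) had 9 and 8 at dox 0, 7 and 4 at dox 0.01, 50 and 0 at dox 0.1, and 68 and 74 at dox 100.

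**Figure D2:**
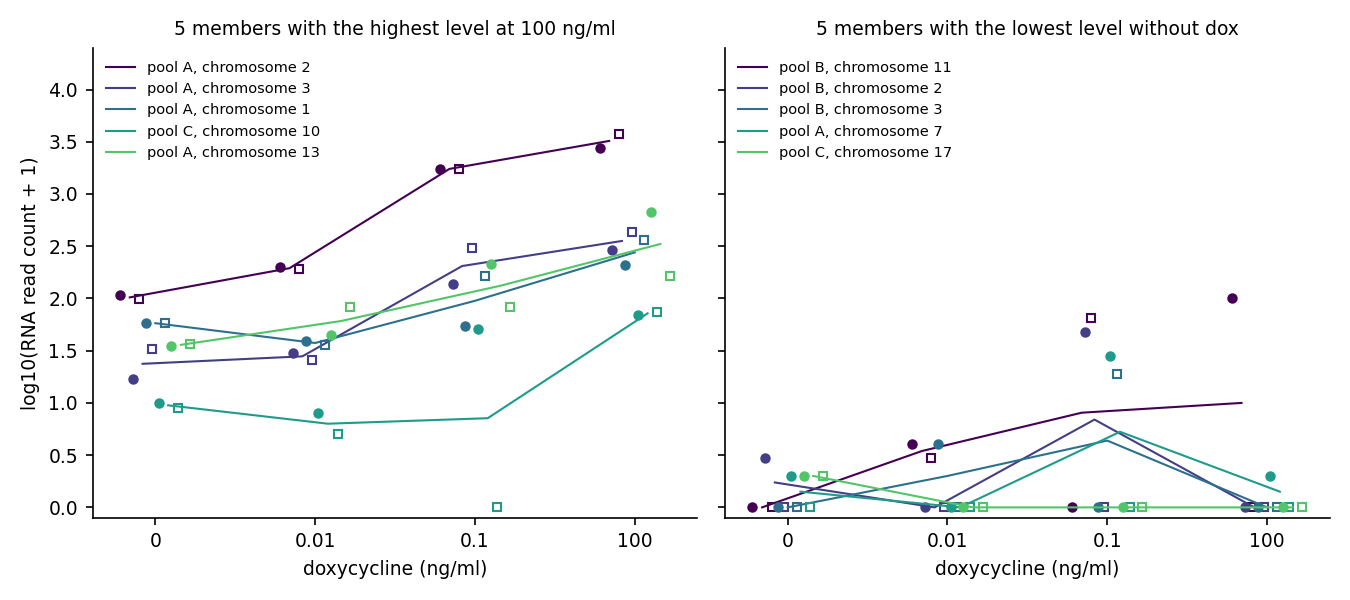
RNA counts, as log10(count + 1), by dox dose for the 5 nearly silent reporters with the highest LR at dox 100 (left) and the 5 with the lowest LR at dox 0 (right). Filled circles are replicate 1, open squares replicate 2 and lines join the replicate means; on the left all 5 end above their dox 0 counts, led by 2776 and 3736 counts, and on the right upper-dose counts come from a single culture.

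Ranked by the size of the change and with RNA required in both cultures of the higher dose, other reporters were called higher too. The chromosome 7 reporter at 30200390 (pool D) had 6 and 0 RNA counts at dox 0.01, 55 and 113 at dox 0.1, and 142 and 450 at dox 100 (log2 change 7.91 ± 1.29 at dox 100 against 0.01, SE, edgeR adjusted p 0.000333). The chromosome 8 reporter at 14040127 (pool B) had 2 and 2 at dox 0.01, 1 and 23 at dox 0.1, and 49 and 58 at dox 100 (6.78 ± 1.40, edgeR adjusted p 0.00174). The chromosome 3 reporter at 58459547 (pool A) had 26 and 36 at dox 0.01, 407 and 178 at dox 0.1, and 696 and 250 at dox 100 (5.73 ± 0.89, edgeR adjusted p 0.000267). The chromosome 9 reporter at 88357406 (pool B) rested on 1 culture: it had 12 and 17 counts at dox 0.01, 134 and 26 at dox 0.1, and 18 and 391 at dox 100, and its log2 change of 5.62 ± 1.43 (edgeR adjusted p 0.00608) became 1.65 without dox 100 replicate 2 (adjusted p 0.186).

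Some were called higher at dox 0.1 and had little or no RNA at dox 100. The chromosome 1 reporter at 162125838 (pool A) had 3 and 7 RNA counts at dox 0, none at dox 0.01, 3 and 46 at dox 0.1, and none at dox 100. Scaled by library totals, it was at least 21.9-fold higher at dox 0.1 than at dox 0.01. The X chromosome reporter at 112088442 (pool C) had 1 and 7 at dox 0, 2 and 0 at dox 0.01, 7 and 22 at dox 0.1, and none at dox 100. The chromosome 17 reporter at 21170078 (pool A) had 5 and 6 at dox 0, 6 and 1 at dox 0.01, 47 and 28 at dox 0.1, and 4 and 0 at dox 100. These 3 had edgeR adjusted p of 0.00946, 0.0182 and 0.0256 at dox 0.1, and none passed 0.05 when either dox 0.01 culture was left out (adjusted p 0.0529 to 0.179). By contrast, the chromosome 4 reporter at 4719167 (pool C) had 8 and 4 at dox 0.01, 97 and 46 at dox 0.1, and 228 and 66 at dox 100 (log2 change 4.59 ± 0.89 at dox 0.1 against 0.01, edgeR adjusted p 0.00488, and 0.0642 without dox 0.01 replicate 2).

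As a group the nearly silent reporters held little of the RNA at any dose. Their summed share of the eligible reporters' RNA counts was 0.159% ± 0.0213 at dox 0, 0.107% ± 0.019 at dox 0.01, 0.12% ± 0.0834 at dox 0.1 and 0.263% ± 0.178 at dox 100 (SD, n = 4 pools). Their share of the DNA counts was 6.15% to 6.40% on average at each dose. The RNA share was higher at dox 100 than at dox 0.01 in 4 of 4 pools, by 0.156 ± 0.165 percentage points (exact permutation p = 0.0139 for the dose trend, 0.0741 after adjustment, which misses 0.05). Few reporters carried it: the 5 with most RNA in each pool held 66.1% of it at dox 100 and 19.3% at dox 0.

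The nearly silent reporters sat where few other reporters had been mapped. Counting the reporters of all 4 pools, a nearly silent reporter had a median of 7 others within 1 Mb on each side, against 11 for the other eligible reporters. The difference of medians was -4.5 ± 0.58 reporters (SD, n = 4 pools), in 4 of 4 pools, with an exact sign-flip permutation p of 0.13, the smallest possible, and 0.154 after adjustment. With the rule at -3 the difference was -4.25 reporters, and with the rule at -5 it was -3.75. The nearest reporter was at a median of 114623 bp, against 44893 bp. None lay within 100 kb for 53.9% of the nearly silent reporters, against 29.7% of the others.

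Grouping the eligible reporters by that count showed a gradient. Of 38 eligible reporters with no other reporter within 1 Mb, 9 (23.7%) were nearly silent. The share was 19.0% with 1 to 2 others, 11.5% with 3 to 5, 5.81% with 6 to 10, 2.46% with 11 to 20 and 2.87% with over 20. The median LR at dox 0 of all eligible reporters rose over the same bins. It went from -3.05 with no other reporter to 0.03 with over 20, so the gradient was not particular to the nearly silent ones. The pools gave 16.2% to 21.4% with 1 to 2 others and 2.30% to 2.73% with 11 to 20, so the pool values of these 2 bins did not overlap. This binning was chosen after the densities were seen. How often a reporter lands and is mapped at a site was not measured apart from these reporters.

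**Figure D3:**
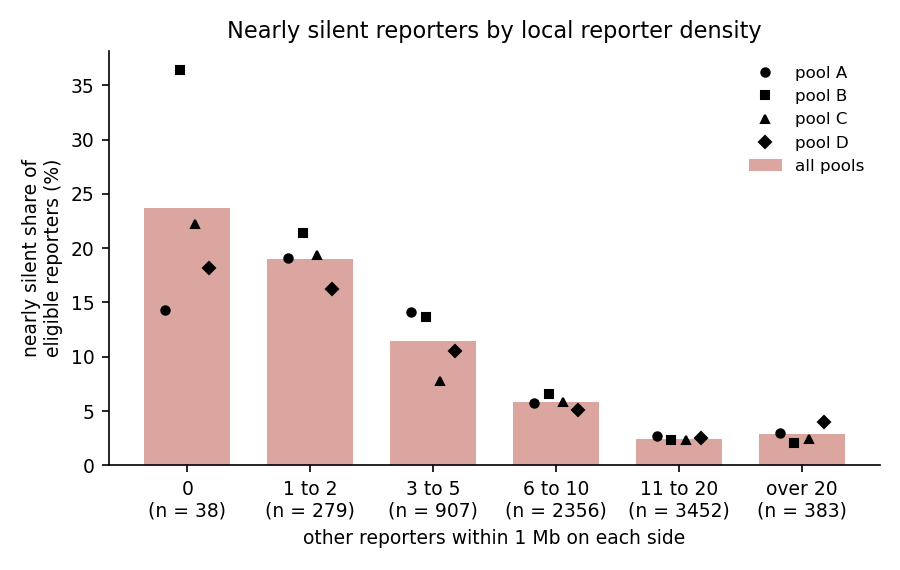
Percentage of eligible reporters that were nearly silent, by the number of other reporters within 1 Mb on each side, with the number of eligible reporters under each bar. Bars are all pools and points the 4 pools; the highest bar is 23.7%, with no other reporter, and the lowest is 2.46%, with 11 to 20.

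DNA count, barcode GC content and strand were compared as well. The nearly silent reporters minus the others gave a median DNA count difference of -13.1 ± 17.9, a barcode GC content difference of 0.453 ± 0.741 percentage points and a difference in the share on the plus strand of 2.45 ± 2.57 percentage points (SD, n = 4 pools). The pools did not all have the same sign in these 3 (exact sign-flip permutation p 0.375, 0.375 and 0.25). The median DNA count of the nearly silent reporters was lower in 3 of 4 pools. Taken over all pools at once it was higher, at 473.25 against 449.56 for the others. A barcode sequence also listed in another pool was carried by 37 (9.27%) of the nearly silent reporters and 7.63% of the others, higher in 4 of 4 pools by 1.63 ± 1.17 percentage points (SD, n = 4 pools; exact sign-flip permutation p 0.13, 0.154 after adjustment). Without such barcodes 362 nearly silent reporters were left. Along a chromosome, measured from its start in percent of the last mapped reporter's position, their median was 45.7%, against 54.3%, lower in 4 of 4 pools (exact sign-flip permutation p 0.13, 0.154 after adjustment). The share of eligible reporters that were nearly silent was 7.16% in the first of 5 equal parts and 3.99% in the last.

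Chromosomes differed in their share of nearly silent reporters, around 5.38% for all. Chromosome 3 had the highest share among the autosomes, 9.64% (43 of 446), and was above 5.38% in all 4 pools, which ranged from 7.08% to 11.7%. Chromosome 1 had 7.86% (43 of 547), from 5.65% to 12.4% over pools. Chromosome 14 had 7.25%, chromosome 17 had 6.65%, chromosome 8 had 6.19%, chromosome 15 had 6.02%, chromosome 18 had 5.90%, chromosome 6 had 5.88% and chromosome 5 had 5.41%. The lowest were chromosome 16 with 1.36% (4 of 295), chromosome 19 with 1.41% (3 of 213), chromosome 11 with 2.77% (12 of 434), chromosome 7 with 3.31% and chromosome 9 with 3.47%, and chromosomes 13, 12, 2, 4 and 10 ran from 3.85% to 5.34%. Chromosomes were not tested against each other, and most neighbours in this order overlapped between pools.

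The X chromosome had 10 nearly silent of 132 eligible reporters (7.58%), with 16.7% in pool B and 0% in pool D. On the Y chromosome, 3 of 4 eligible reporters were nearly silent, and the fourth lay close to the threshold. The 3 were at 1792128 (pool B, 2 and 8 RNA counts at dox 0), 2003430 (pool C, 2 and 2) and 2885479 (pool B, 17 and 8), and all had no RNA at dox 0.1 and 100. The fourth, in pool D at 2782244, had an LR of -3.97 and -4.28 at dox 0. A pool D reporter at 2857937, below the DNA minimum with 40 counts in its thinnest library, had 1516 and 1701 RNA counts at dox 0. The other Y reporter below that minimum, in pool D at 1791167 with 98 DNA counts in its thinnest library, had 0 and 6.

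**Figure D4:**
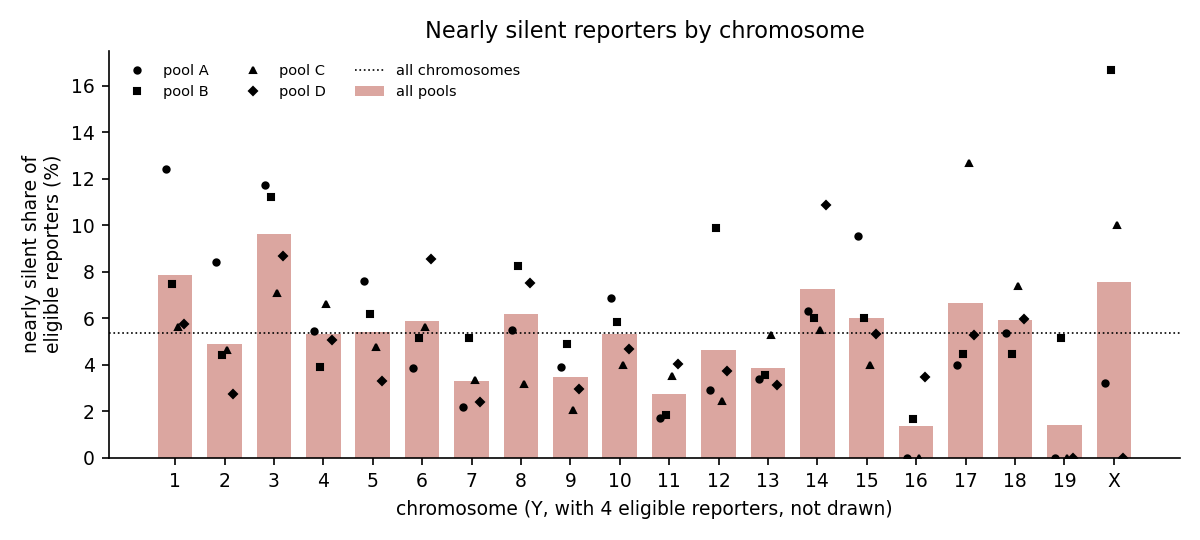
Percentage of eligible reporters that were nearly silent on each chromosome. Bars are all pools, points the 4 pools and the dotted line the value for all chromosomes, 5.38%; chromosomes 3 and 1 stand highest among the autosomes at 9.64% and 7.86%, and chromosomes 16 and 19 lowest at 1.36% and 1.41%.

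Reporters close to a nearly silent one, in another pool and so in other cells, were low more often than reporters close to any other. Of the eligible neighbours from another pool under 1 kb away, 4 of 7 (57.1%) were nearly silent around nearly silent reporters, against 1.66% around the others. Under 10 kb it was 8 of 27 (29.6%, 95% Wilson interval 15.9 to 48.5), against 1.91%. Under 100 kb it was 18 of 159 (11.3%, interval 7.28 to 17.2), against 2.31%, and the pools ranged from 6.38% to 15.2%. From 100 kb to 1 Mb it was 8.58%, against 3.61%. The pairs share reporters, so no test was made and the intervals cover counting error only. A reporter in a dense region enters more pairs, and the nearly silent reporters lay in sparser regions. The shares around the others were all below the 5.38% of all eligible reporters. Pairs were not matched for reporter density, and its part in these gaps was not tested.

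The level of these neighbours showed the same order without a threshold on them. The median LR at dox 0 of neighbours from another pool under 10 kb was -2.17 around nearly silent reporters (quartiles -4.30 and -0.48), against 0.09 around the others. Under 100 kb it was -1.74, against -0.17, and from 100 kb to 1 Mb it was -1.39, against -0.54. In each pool the neighbours under 100 kb were lower around nearly silent reporters, with medians of -1.92 to -1.35 against -0.26 to -0.09. At dox 100, RNA in both replicates was seen for 31.4% of the neighbours under 100 kb of nearly silent reporters, against 48.3% of those of the others.

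At lower levels no excess was detectable. With the rule at -5, 0 of 78 neighbours under 100 kb were also at -5 or less, which allows a share of up to 3.85%, against 1.26% around the others. With the rule at -3 it was 17.4%, against 5.67%. The 148 reporters at -5 or less in both dox 0 replicates had neighbours under 100 kb with a median LR of -1.36, and 6 of those 78 (7.69%) were at -4 or less. The remaining 251 had neighbours with a median of -1.99, and 12 of 81 (14.8%) were at -4 or less. The difference between these 2 sets was not tested.

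**Figure D5:**
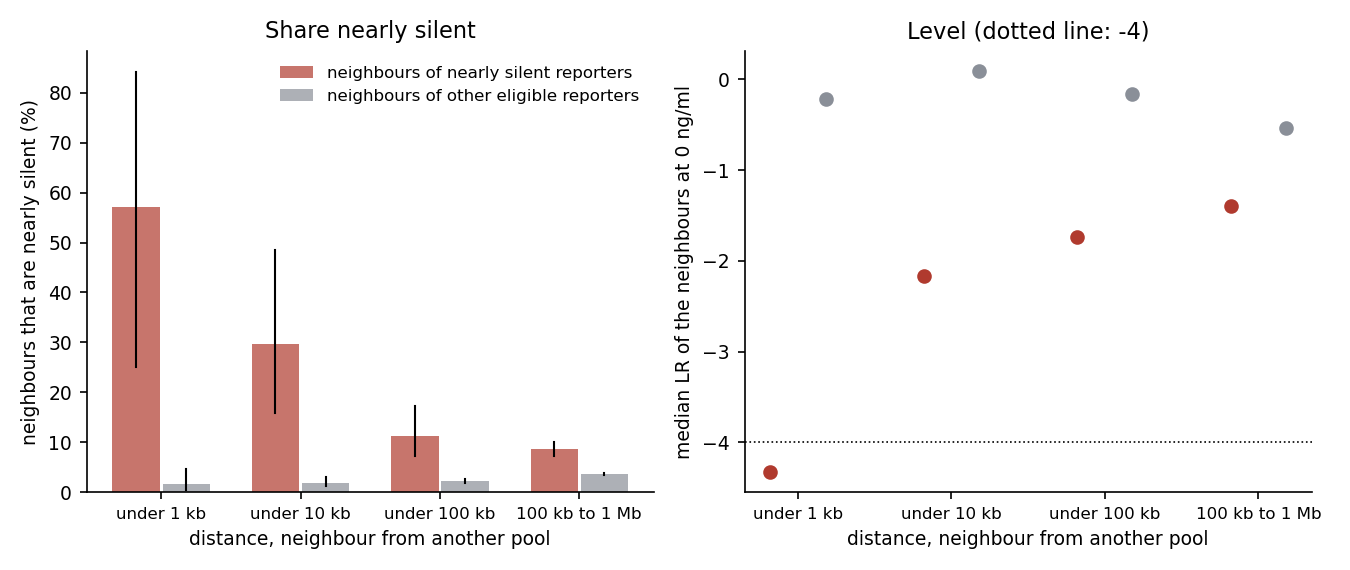
Eligible reporters from another pool near a nearly silent reporter (red) or near another eligible reporter (grey), by distance: the percentage that were nearly silent, with 95% Wilson intervals for counting error (left), and their median LR at dox 0 (right). The first 3 distance classes are nested; the red bars stand above the grey ones in each class, at 57.1% against 1.66% under 1 kb and 8.58% against 3.61% from 100 kb to 1 Mb.

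Pairs under 1 kb apart showed both outcomes. On chromosome 5, the reporters 1 bp apart, whose barcodes are shown above and differ at 13 of 16 bases, had 18 and 25 RNA counts (pool C) and 13 and 17 (pool A) at dox 0, with LR of -5.16 and -4.36. At dox 100 the pool C copy had 51 and 107 RNA counts and the pool A copy 0 and 69. On chromosome 3, the reporters 94 bp apart had 57 and 69 RNA counts (pool B, LR -4.33) and 0 and 0 (pool C, LR -9.60) at dox 0, and neither had RNA at dox 100. On chromosome 17, a pair within pool C, at 54846683 and 54847342, had 4 and 5 and 9 and 10 RNA counts at dox 0.

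Elsewhere a nearly silent reporter lay beside one that was not nearly silent. On chromosome 8, the pool B reporter at 119226650 had 0 and 0 RNA counts at dox 0 for 1438 and 1714 DNA counts, while the pool A reporter 577 bp away had 1861 and 2292 RNA counts for 895 and 991 DNA counts. On chromosome 16, the pool D reporter at 20362342 had 17 and 13 RNA counts, and another of the same pool 287 bp away had 1186 and 1202. On chromosome 4, the pool B reporter at 46678683 had 78 and 61, and a pool A reporter 231 bp away had 303 and 289. On chromosome 1, the pool A reporter at 66751600 had 15 and 15, and a pool C reporter 579 bp away had 165 and 220. The neighbours on chromosomes 8 and 16 had a mean LR of 0.92 and 1.06 at dox 0. Those on chromosomes 4 and 1 had -1.46 and -1.75, below the other reporters' median. Over all pools and distances under 100 kb, 138 nearly silent reporters had an eligible neighbour, and 44 of them had one above the other reporters' median of -0.72.

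Linked by gaps of at most 1 Mb, the 399 formed 319 groups, of which 261 held a single reporter and 58 held 2 or more. Those 58 held 138 reporters, and 17 of them held 3 or more, 16 of these from at least 2 pools. No background was computed for the number of groups or for the mixing of pools. Since the pools held similar numbers of nearly silent reporters, the count of mixed groups does not measure agreement between pools. With gaps of at most 500 kb there were 34 groups of 2 or more, and with the rule at -3 or -5 there were 206 or 12. The largest ran over chr1:75701555-77215990 and held 5 nearly silent reporters from 3 pools among 6 eligible ones. The only other eligible reporter there was at -3.51, and none of the 5 had RNA at dox 100.

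The next in size held 4 or 3 each. Over chr17:54846683-55851424, 4 of 5 eligible reporters were nearly silent and the other was at a mean of -4.09. Over chr6:10416268-11856904, 4 of 4 were nearly silent, from 2 pools, with LR of -4.87 to -4.55, and 1 had RNA in both cultures at dox 100. Over chr3:21674416-23429348, 4 of 7 were nearly silent, all from 1 pool, and the rest had a median of -2.70. There were 13 groups of 3, in which the nearly silent reporters made up 25% to 100% of the eligible ones between the outermost pair; each group is bounded by its own members. The shortest was chr4:78001333-78266427, where 3 of 3 were nearly silent, from 2 pools, with LR of -7.89 to -4.77.

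In windows of 5 Mb with at least 10 eligible reporters, no window was silent throughout. These windows held 251 nearly silent reporters. The rest lay in windows with fewer eligible reporters, which were left out. The windows therefore do not speak to sparser regions. Nor do they speak to shorter stretches, such as the groups above in which every eligible reporter was nearly silent. Of 348 such windows, 171 had no nearly silent reporter, 12 had 20% or more and 0 had 50% or more. The highest share was 40% (4 of 10) over chr6:10000001-15000000, where the reporters that were not nearly silent had a median LR of -2.41. It was followed by chr1:65000001-70000000 with 27.3%, chr6:20000001-25000000 with 26.7%, chr9:5000001-10000000 with 25% and chr17:50000001-55000000 with 23.1%. In these 4 windows the medians of the remaining reporters were -2.53, -1.96, -2.06 and -2.02 in the same order, all below the median of -0.72 of the other eligible reporters.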

How the data were processed

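Barcodes were counted in RNA (cDNA) and genomic DNA of 4 pools, 4 doses and 2 replicates, 64 libraries in all; 16 mapping libraries were not used as measurements. The deposited table holds raw read counts per barcode with chromosome, position and strand, not normalized. Bowtie2 2.0 and mm9 are named in the submitters' processing notes, with no account of how barcodes and positions were called. No mm9 annotation was used, so genes are not named.

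The reporters, lists and thresholds were chosen with earlier results of these data known. LR used library sums over the 10785 reporters with 10 or more DNA counts in every library of their pool. edgeR 4.0.16 (R 4.3.3) fitted 1 quasi-likelihood model per pool to its 16 libraries, in which dose could change RNA relative to DNA. Scaling was by TMM, separately for RNA and DNA, and p-values were adjusted in each pool (Benjamini-Hochberg). The SE beside an edgeR change is its size divided by the square root of F, not an SE from the fit. A fold bound counts 3 reads over the group and is scaled by library totals, not by TMM. On simulated counts for dox 100 against 0.01 over 10785 reporters the model found 39.5% of simulated log2 changes of -4 and 71.5% of those of 4. It found 6% of those of -2 and 13% of those of 2, and called 0.0801% of reporters made without a change. The changed reporters were drawn from all those fitted, so these rates need not hold for the nearly silent ones, whose RNA counts were lower. The simulation used the dox 0.01 RNA means and the same spread at every dose. In the data, the SD of LR between replicates of the other eligible reporters was 0.53 at dox 0.01 and 2.11 at dox 100. The rate without a change therefore need not hold for the data either. DESeq2 1.42.0 was an alternative. Pool values were tested by exact permutation (Python 3.11.15, scipy 1.17.1), all two-sided. Of the 16 such tests, those of detection in other reporters, summed RNA share, nearest distance, position, DNA count, GC, strand and shared barcodes were added after the data were seen.

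Named reporters were the 5 lowest at dox 0, 3 on each side of the threshold, up to 5 called in each direction and contrast (by size, those with RNA in both cultures of the higher dose first), the 5 highest at dox 100, pairs under 1 kb, the 5 largest groups, the 5 windows with the highest share, and all chromosomes; the Y reporters were added after their values were seen. Each culture was split over the doses, per the labels, so replicate numbers pair samples within a pool. Deviations of same-numbered RNA to DNA ratios correlated at -0.053 to 0.031 over 24 dose pairs. The reads come from PCR and carry no molecular identifiers, which leaves intervals to cover counting error alone.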

Additional observations from a re-analysis of the deposited data

Results flagged for a closer look

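The summed share of RNA held by the nearly silent reporters at dox 100 was 0.529% in pool A and 0.162% to 0.193% in the other 3 pools, so that pool A stood apart from the rest by Dixon's criterion (ratio 0.916). It was 1 of 20 groups of 4 pools examined, and chance flags about 1 in 20. Of those counts, 2776 and 3736 in the 2 replicates belonged to the chromosome 2 reporter at 154717685. Without it the share was 0.253% in pool A, and without the reporter with most RNA in each other pool it was 0.130% to 0.145% there.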

How the results depend on the processing

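The number of nearly silent reporters was 925 at a threshold of -3, 148 at -5 and 181 with LR centred on the pool median. Library totals gave 11 instead of 17 higher calls at dox 0.1 against 0.01, which is 2.76% beside a background of 2.9%. Lower calls there rose from 107 to 148 (37.1% beside 25.8%). At dox 100 against 0.01, lower calls rose from 157 to 208 (52.1% beside 58.1%) and higher calls fell from 33 to 24 (6.02% beside 5.41%). The background also moved between the runs named next, so their counts alone show no change relative to all reporters. Over the runs without 1 replicate of a dose, calls at dox 0.1 against 0.01 numbered 5 to 25 higher and 57 to 81 lower, and at dox 100 against 0.01 19 to 44 higher and 100 to 132 lower. The narrowing of the gap was 2.27 with a pseudocount of 0.5 and 1.65 at a threshold of -3, where the exact permutation p no longer passed 0.05. The share of neighbours under 100 kb that were nearly silent, 11.3%, was 29.6% under 10 kb and, by thresholds added after the data were seen, 17.4% at -3 and 0% at -5. Groups of 2 or more numbered 58, with 34 for gaps of 500 kb, 206 at -3 and 12 at -5. A stricter threshold leaves fewer reporters by construction; the cause of the other moves was not tested. Scaling moved the median log2 change of all reporters at dox 0.1 against 0.01, which was -0.67 with TMM, -1.60 with library totals and -1.41 with DESeq2 size factors, and at dox 100 against 0.01, which was -3.80, -4.61 and -4.29; all calls are relative to that. Over all reporters at dox 0.1 against 0.01, 675 were higher and 1646 lower with TMM, and 313 higher and 2786 lower with library totals. With the replicate block there were 15 higher and 82 lower calls at dox 0.1 and 28 higher and 141 lower at dox 100, and among 20 named changes 1 lost its call, that of the chromosome 18 reporter at 32904260 (adjusted p 0.0517 in edgeR). Backgrounds in that run were 5.64% and 12.8% at dox 0.1 and 9.13% and 46.2% at dox 100, in the same order. No called change of a named reporter and no difference of median LR changed sign, but at -5 the neighbour share was below that around the others (1.26%). Most upper-dose RNA counts were 0, so depth limits what can be said of levels there.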
